A study of Mus musculus with 4 samples.

Results

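The subject is how the transcripts of mouse bone marrow-derived dendritic cells that received lipopolysaccharide (LPS) together with lactic acid (LA) differed from those of cells that received LA alone. All genes with a named probe entered the comparison, and a gene counted when its spot was well above background, by the flag of the scanner software, on at least 1 of the 2 arrays. Of 23451 genes with a value, 16415 met that rule. Of these, 14905 were well above background on both arrays, 653 on the LPS with LA array only and 857 on the LA array only. The other 7036 genes were dim on both arrays and are not counted below.

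The study profiled total RNA of wild-type cells on 4 single-colour Agilent arrays, and each group was 1 array. The cells of the LPS with LA group received 100 ng/ml of ultrapure LPS and 20 mM L-(+)-LA for 4 h. The cells of the LA group received 20 mM L-(+)-LA for 4 h, those of the LPS group 100 ng/ml LPS for 4 h, and those of the medium group neither agent. All groups shared the same source: femur marrow of male C57BL/6J mice, cultured with 10 ng/ml GM-CSF in MEM that held 10% FBS, and collected on day 6. The labels give neither the pH of the medium with LA nor a time for the medium group. Since 1 array stands for each group, there is no replicate check, no p-value and no SD between cultures for any difference below. Precision is limited by that number of arrays.

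LPS is a cell wall component of Gram-negative bacteria that binds Toll-like receptor 4 (TLR4) with its co-receptors CD14 and MD-2. The adaptor MyD88 leads from the receptor to NF-kB and MAP kinases and to early cytokine genes, while the adaptor TRIF leads to IRF3, interferon beta and, through the interferon receptor and STAT factors, to interferon-stimulated genes. Dendritic cells that sense LPS normally mature: they raise costimulatory molecules and secrete cytokines that instruct T cells. Lactic acid is the acid end product of glycolysis, crosses membranes through monocarboxylate transporters and is sensed by receptors such as the lactate receptor Hcar1 and the proton-sensing receptor Gpr65.

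A level here is a spot's background-subtracted intensity relative to the 75th percentile of its array, on the log2 scale, so that a level of 0 is brighter than most of the array. A difference is the level on the LPS with LA array minus that on the LA array, and 1 log2 unit, a 2-fold difference, was the threshold for counting a gene. Where a gene was dim on 1 array its difference is a lower bound, set against the lowest signal well above background there. The scanner software gives each spot an error, and for genes measured on both arrays its median for a difference was 0.21 log2 units. That error covers the spot and not the culture. The 75th percentile of the processed intensity was 146 on the LPS with LA array and 158 on the LA array, against 174 with LPS and 179 in medium, and between 56.5% and 64.1% of spots were well above background on the 4 arrays. All 4 arrays lay on 1 slide and were read in 1 scan.

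With LA in both groups, few genes were set apart by LPS. At least 2-fold higher with LPS and LA than with LA alone were 299 genes, or 1.82% of those counted, and 457 genes, or 2.78%, were at least 2-fold lower. Many of these, 164 higher and 234 lower, rested on a bound. Among the 14905 genes measured on both arrays 135 were higher, which is 0.906%, and 223 were lower, which is 1.5%. The comparison most like it, LPS against medium without LA, uses the other arrays and shares none with it. There 1437 of 15638 genes were at least 2-fold higher (9.19%) and 1339 were lower (8.56%), and among genes measured on both of those arrays 1107 were higher (8.14%) and 1019 lower (7.5%). The differences of measured genes had an SD of 0.38 log2 units over genes with LA present and of 0.82 without it, with medians of -0.02 and 0.00.

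The genes of the inflammatory response made the contrast plain. A fixed set of 47 cytokine, chemokine, maturation, feedback and lactate-sensing genes was read on every array. In LPS with LA against LA, 38 of them were measured on both arrays, 2 on 1 array and 7 on neither, 3 were at least 2-fold higher and 0 were lower, and the median difference was 0.19. In LPS against medium, 40 of the same set were at least 2-fold higher, 1 was lower, and the median was 3.83 over 41 measured genes. The 3 higher with LA present were Cxcl10, Il12a and Rsad2. These counts use the brightest probe of each gene. By its other measured probe Icam1 differed by 1.47 with LA present, against -0.11 by its brightest. Such a probe differed by 1.13 for Tnf and by 0.03 for Rsad2.

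Cxcl10 is the chemokine that draws CXCR3-bearing T cells. Its level was -1.59 with LPS and LA and -3.65 with LA, against 6.36 with LPS and -1.34 in medium. The difference with LA present was 2.07 (software error 0.32), or 4.19-fold, whereas without LA it was 7.70, or 208-fold. The LPS with LA level thus lay just under that of medium, and the LA array held the lowest of the 4 levels. Il12a encodes the p35 subunit of interleukin-12. Its level was -1.38 with LPS and LA and -2.96 with LA, against 2.19 with LPS and -2.07 in medium, a difference of 1.58 (error 0.26) with LA present and of 4.26 without. Rsad2 encodes viperin, an interferon-induced antiviral enzyme. Its level was 1.73 with LPS and LA and 0.46 with LA, against 8.30 with LPS and 3.41 in medium, a difference of 1.27 (error 0.20) with LA present and of 4.89 without. In each of these genes the LPS array alone stood far above the other 3. The call of Rsad2 rested on its brightest probe, and its other measured probe differed by 0.03. After normexp background correction, which compresses dim spots, Rsad2 remained at least 2-fold apart (1.09), but Cxcl10 stood at 0.72 and Il12a at 0.65.

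The remaining cytokines of the set lay close together on the LPS with LA and LA arrays. Tnf, the early cytokine of the MyD88 arm, had levels of 1.46 with LPS and LA and 0.86 with LA, against 6.69 with LPS and 2.15 in medium. Its difference of 0.60 with LA present exceeded the software error of 0.20 and stayed under 2-fold, and its other probe differed by 1.13. Il6, which drives the acute phase response, had levels of -2.10 with LPS and LA and -2.68 with LA, against 4.68 with LPS and -1.63 in medium, a difference of 0.58 that likewise stayed under 2-fold. Il1b, the inflammasome-processed pyrogen, had levels of 2.54 with LPS and LA and 2.26 with LA, against 6.19 with LPS and 2.02 in medium. Il12b, the p40 subunit that Il12a pairs with, had levels of -0.85 with LPS and LA and -0.57 with LA, against 6.29 with LPS and 0.44 in medium. The 2 subunits of interleukin-12 thus differed in sign: Il12a was higher with LPS and LA by 1.58, and Il12b was lower by 0.28, a size little over its error of 0.21. Ifnb1 (interferon beta), Il10, Il23a, Cxcl1, Csf2, Csf3 and Hcar1 were not well above background on either the LPS with LA or the LA array, and no fold is given for them. Of these, Ifnb1 had a level of 3.87, Cxcl1 of 2.95 and Il10 of 0.36 on the LPS array.

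**Figure D1:**
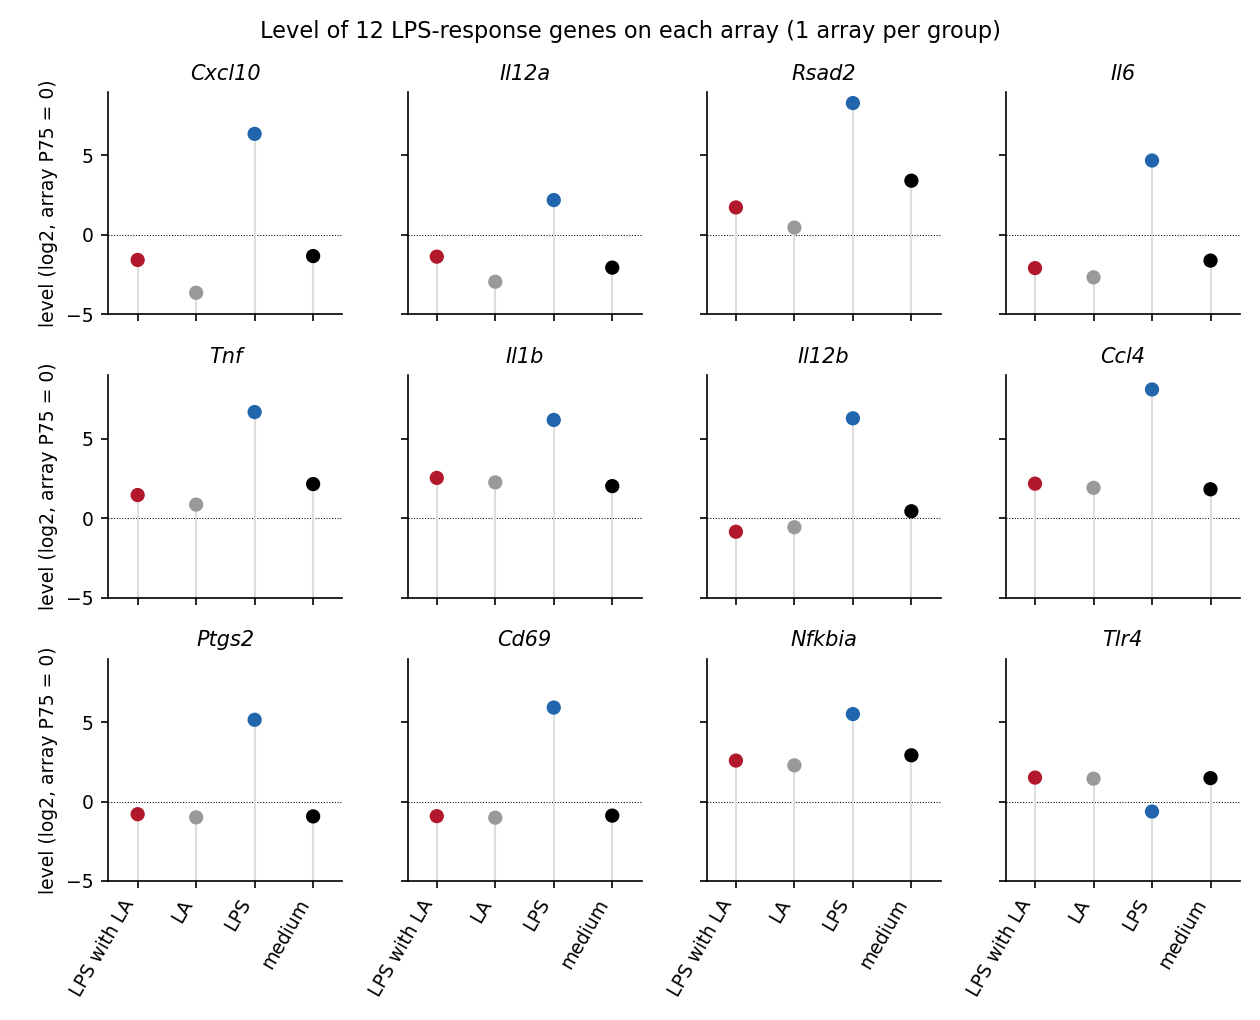
Level of 12 LPS-response genes on each array (vertical axis, log2 scale where 0 is the 75th percentile of the array; 1 point per array, 1 array per group; stems only guide the eye). For 11 of the 12 genes the LPS array holds the highest point and the LPS with LA point lies near the LA point, while Tlr4 is lowest on the LPS array; the LPS with LA and LA points of Cxcl10 lie at -1.59 and -3.65.

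Maturation markers showed the same closeness. The list of maturation and costimulation genes, 26 genes whose products reach the cell surface or guide migration to lymph nodes, had 0 of 25 counted members at least 2-fold apart with LA present and a median of 0.14. Without LA 19 of 26 were at least 2-fold higher, with a median of 1.64. Cd69, an early activation antigen, had levels of -0.92 with LPS and LA and -1.01 with LA, against 5.93 with LPS and -0.89 in medium. Cd86, the ligand of CD28, had levels of 0.78 with LPS and LA and 0.57 with LA, against 3.70 with LPS and 2.28 in medium. Cd40, which receives help from T cells, had levels of -2.97 with LPS and LA and -3.57 with LA, against 1.41 with LPS and -2.25 in medium, so that it was 0.59 higher with LPS and LA, under 2-fold. Slamf1, a self-ligand receptor of activated leukocytes, had the largest difference of the measured members at 0.86, with a software error of 0.38.

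A broader view came from the genes that LPS had set apart most when LA was absent. Of the 13368 genes measured on all 4 arrays, 1045 were at least 2-fold higher in LPS against medium. In LPS with LA against LA their median difference was 0.02, with 17 at least 2-fold higher and 13 lower. Of all 13368 genes, 87 were at least 2-fold higher and 133 lower in that comparison. The 1010 genes at least 2-fold lower in LPS against medium had a median of 0.02 with LA present, with 7 higher and 16 lower. Across the 13368 genes the differences of the 2 comparisons had a Pearson correlation of 0.017 and a Spearman correlation of -0.012. Both are descriptions over genes of 2 pairs of arrays, whose levels share the slide and the probe, and genes are not independent replicates. The 17 genes higher in both comparisons were 19.5% of the 87 genes higher with LA present and 1.63% of the 1045 higher without LA. The 16 genes lower in both were 12% of the 133 lower with LA present and 1.58% of the 1010 lower without. The shares of 19.5% and 12% stand beside 1045 higher and 1010 lower without LA of all 13368 genes. Taking one difference from the other, 1199 of the 13368 genes (8.97%) had a signed LPS difference at least 1 log2 unit above that without LA, and 1297 (9.7%) one at least 1 log2 unit below it. The sign does not give the size: a gene much lower with LPS than in medium, and alike with LA present, counts among the 1199.

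**Figure D2:**
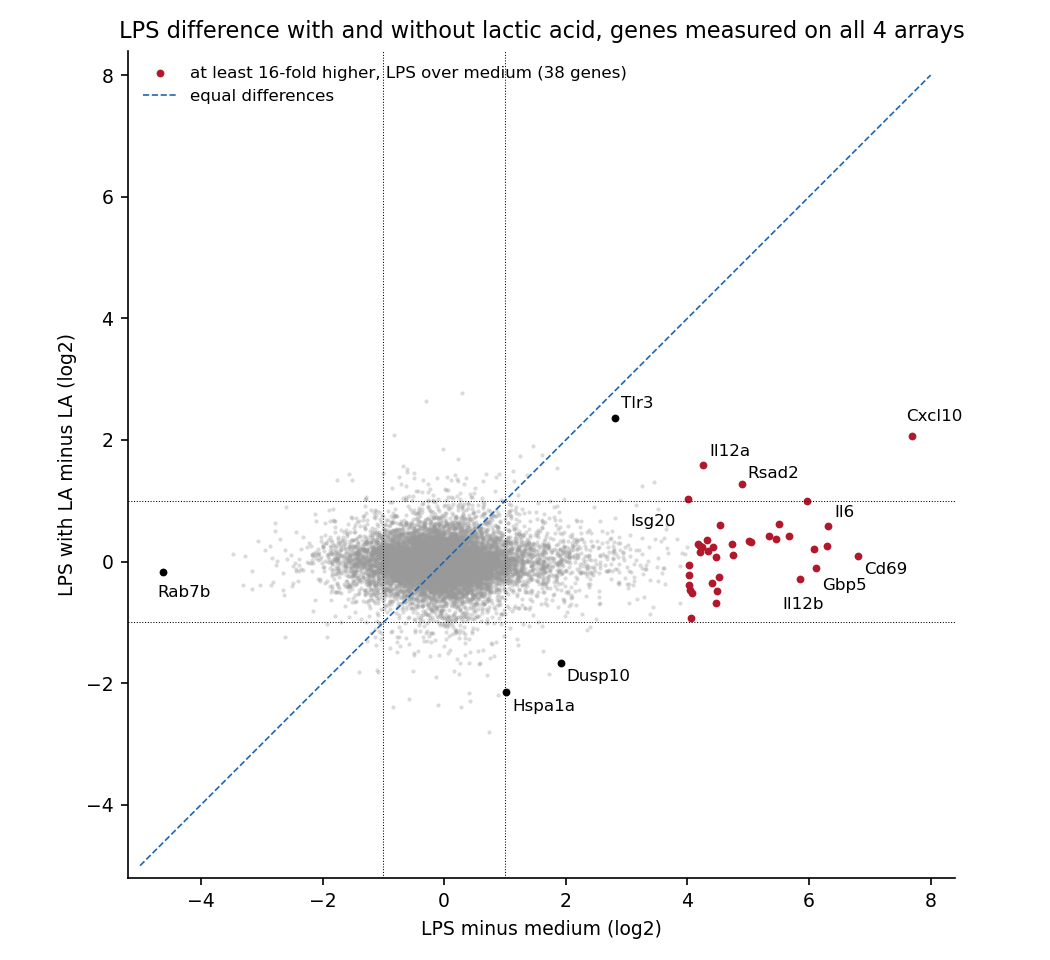
Difference LPS with LA minus LA (vertical axis, log2) against difference LPS minus medium (horizontal axis, log2) for 13368 genes measured on all 4 arrays; each grey point is a gene, red points are the 38 genes at least 16-fold higher with LPS over medium, black points are other genes named in the text, dotted lines mark 2-fold and the dashed line equal differences. The cloud lies flat along the horizontal axis: Cxcl10 stands at 2.07 on the vertical and 7.70 on the horizontal axis, and Rab7b at -0.17 and -4.62.

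The 38 genes at least 16-fold higher in LPS against medium include Tnf, Il6, Il1b, Il12b, Ccl4 and Ptgs2. With LA present their median difference was 0.25, against 4.51 without LA. Of the 38, 26 lay above 0 with LA present, or 68.4%, where 47.2% of all 13368 genes did, and 7 were at least 1.5-fold higher, or 18.4%, where 3.37% of all did. At least 2-fold higher were 4 of them: Cxcl10, Il12a, Rsad2 and Isg20, an interferon-induced exonuclease with a difference of 1.03. The other probe of Isg20 differed by -0.67, so its probes disagreed in sign. Oasl1, a relative of the antiviral 2-5A synthetases, lay next to the threshold at 0.99 (error 0.25). At the other end of the 38 were Ptx3, a secreted pattern recognition protein, at -0.93, and Ifit3, an antiviral protein with a near-identical copy, Ifit3b, that its probe may also read, at -0.67. Their levels were 0.45 (Ptx3) and -0.86 (Ifit3) with LPS and LA, and 1.38 (Ptx3) and -0.19 (Ifit3) with LA.

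**Figure D3:**
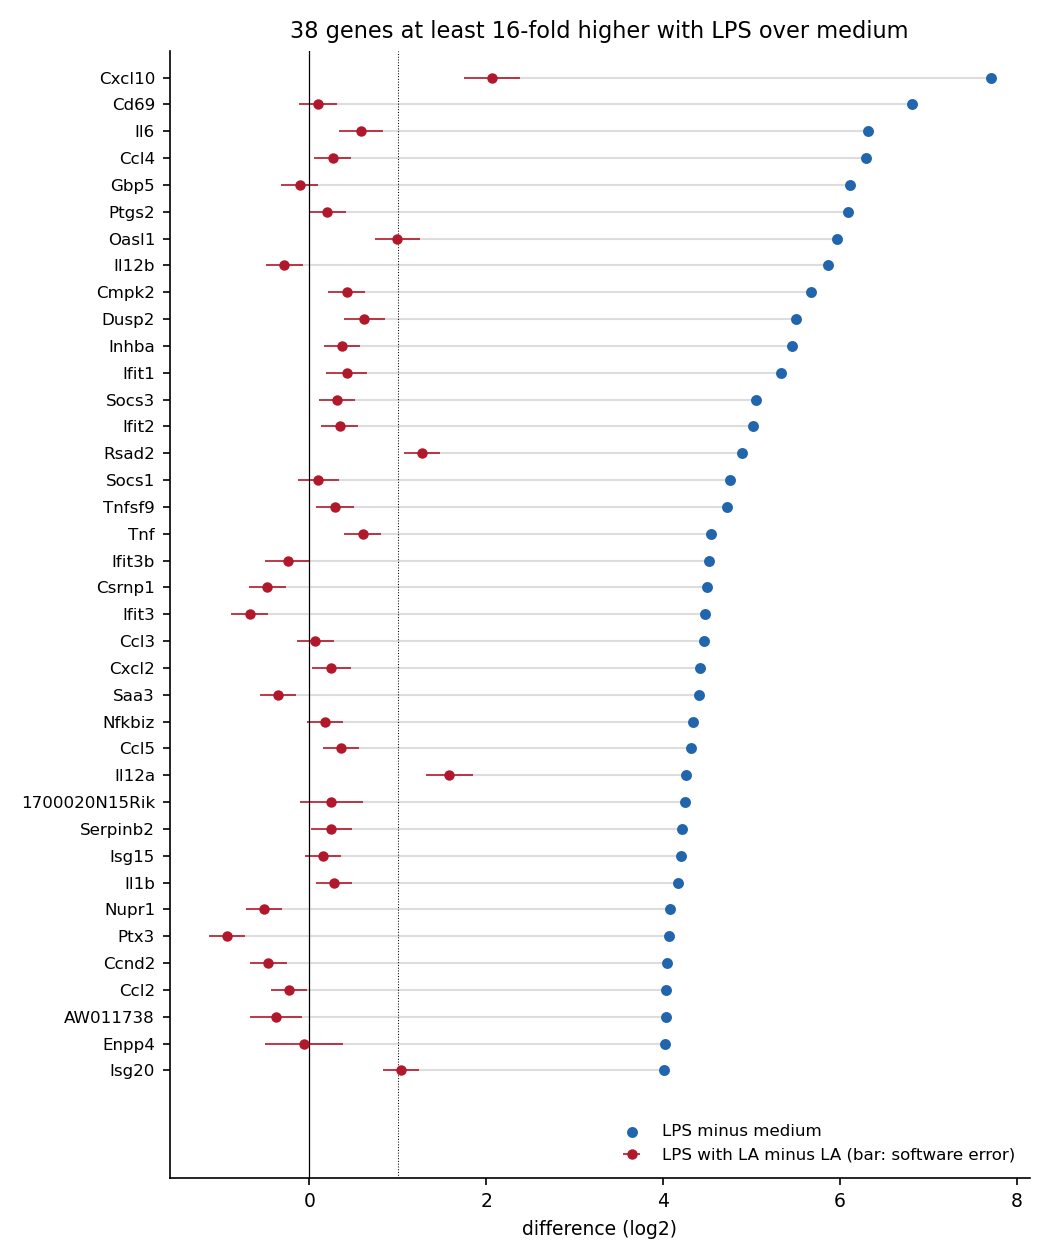
The 38 genes at least 16-fold higher with LPS over medium, 1 per row in order of that difference; red points give LPS with LA minus LA with the software error as bar, blue points LPS minus medium, both in log2 units on the horizontal axis, and the dotted line marks 2-fold. The red points spread from -0.93 (Ptx3) to 2.07 (Cxcl10), and all blue points lie beyond 4.

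The promoters of 4 of these genes are shown because they differ in the difference that remained with LA present: Cxcl10 and Rsad2 were at least 2-fold higher, while Il6 (0.58) and Gbp5 (-0.11) were not. Gbp5 is an interferon-induced GTPase that attacks vacuoles and bacteria. Each line gives the 250 bases before the gene's start in RefSeq annotation of build GRCm38.p6, 5′ to 3′ on the gene's strand. The positions are chr5:92348890-92349139 (minus strand) for Cxcl10, chr12:26456453-26456702 (minus strand) for Rsad2, chr5:30012864-30013113 (plus strand) for Il6 and chr3:142496684-142496933 (plus strand) for Gbp5. Capitals mark matches, on either strand, to a kappaB form bound by NF-kB (GGG, any 2 bases, then TTTCC), to an interferon-stimulated response element (GAAA, any 2 bases, then GAAA) or to an AP-1 site (TGANTCA). Only these forms were searched, so a window without a marked match may still hold other forms of the same sites.
Cxcl10: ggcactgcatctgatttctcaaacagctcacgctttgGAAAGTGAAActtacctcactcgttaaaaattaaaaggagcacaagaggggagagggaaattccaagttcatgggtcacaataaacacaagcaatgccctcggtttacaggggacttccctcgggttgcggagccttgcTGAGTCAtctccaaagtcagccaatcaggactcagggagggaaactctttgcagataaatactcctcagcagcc
Rsad2: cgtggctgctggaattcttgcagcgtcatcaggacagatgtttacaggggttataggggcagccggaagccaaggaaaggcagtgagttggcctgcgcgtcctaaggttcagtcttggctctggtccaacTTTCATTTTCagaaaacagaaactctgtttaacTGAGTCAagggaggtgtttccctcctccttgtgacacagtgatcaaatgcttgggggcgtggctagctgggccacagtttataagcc
Il6: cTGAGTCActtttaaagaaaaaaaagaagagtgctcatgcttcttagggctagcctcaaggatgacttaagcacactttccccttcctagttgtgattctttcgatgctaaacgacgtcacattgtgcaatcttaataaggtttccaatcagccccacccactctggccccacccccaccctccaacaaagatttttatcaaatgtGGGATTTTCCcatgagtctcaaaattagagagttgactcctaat
Gbp5: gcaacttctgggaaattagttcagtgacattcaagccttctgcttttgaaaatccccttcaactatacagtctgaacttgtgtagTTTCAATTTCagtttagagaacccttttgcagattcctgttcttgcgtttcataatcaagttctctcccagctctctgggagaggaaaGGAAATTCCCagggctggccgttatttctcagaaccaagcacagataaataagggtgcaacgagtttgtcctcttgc
Cxcl10 and Rsad2 each hold a response element match and an AP-1 match, Il6 a kappaB and an AP-1 match, and Gbp5 a kappaB and a response element match. No 2 of the marked matches overlap in these 4 windows. Of genes searched in the same way and not printed, Il12a (difference 1.58) held no match at either of its 2 starts. Il12b (-0.28) held none, and Tlr3 (2.37), which is not among the 38, held a kappaB match alone. Over the 27025 genes with a promoter in the RefSeq table, 1.65% hold the kappaB form, 3.46% the response element form and 7.82% the AP-1 form. Over the 10625 of them measured on all 4 arrays, those shares are 1.68%, 3.51% and 6.31%. Of the 38 genes at least 16-fold higher in LPS against medium, 31 have a promoter in the table, and 3 hold the kappaB form, 9 the response element form and 7 the AP-1 form. Of the 17 genes higher in both comparisons 14 have one, with 1, 2 and 3 matches in the same order. Among the 102 promoters of genes at least 2-fold higher with LPS and LA, 3 hold the kappaB form, 3 the response element form and 7 the AP-1 form. Matches describe letters in a window and do not show that a factor binds there.

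Gene lists drawn up by role placed this comparison along the pathway. Over all 37 lists the medians of LPS with LA against LA ran from -0.16 to 0.14, against -0.54 to 3.52 for LPS against medium, while over all measured genes the medians were -0.02 and 0.00. Of 824 list genes counted, 9 were at least 2-fold higher and 15 lower, where 1.82% of all counted genes were higher and 2.78% lower. In 23 lists 0 members were apart, and at those shares a list of this length would hold few such genes in any case.

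**Figure D4:**
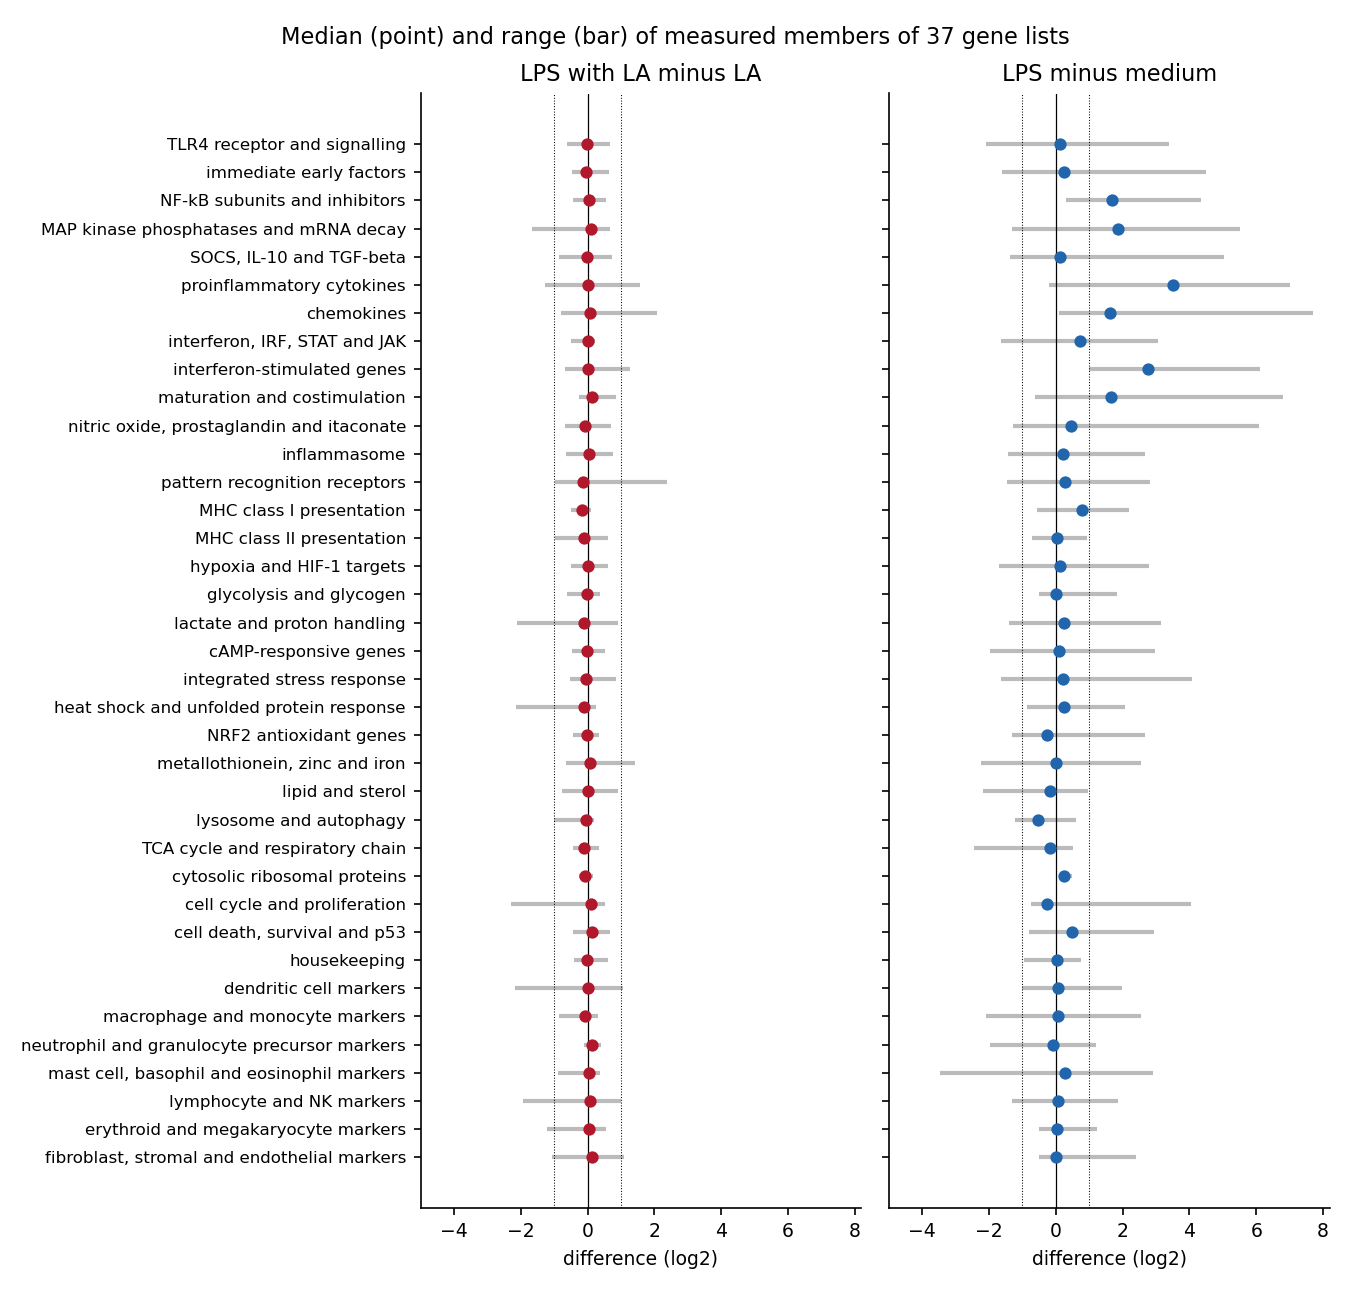
Median (point) and range (bar) of the differences of measured members in 37 gene lists, left panel LPS with LA minus LA and right panel LPS minus medium, both in log2 units on the same scale with 2-fold marked by dotted lines. The medians of the left panel lie between -0.16 and 0.14, and those of the right panel between -0.54 and 3.52.

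At the receptor and its adaptors, all 30 members of the TLR4 list were measured with LA present and 0 were at least 2-fold apart, with a median of -0.01. Tlr4 itself had a level of 1.51 with LPS and LA and 1.45 with LA, against -0.63 with LPS and 1.48 in medium, so the 2.11 log2 units by which it was lower with LPS alone were not seen with LA. Cd14 had 1.85 with LPS and LA and 1.84 with LA, against 4.27 with LPS and 2.39 in medium. The other measured probe of Cd14 differed by -0.75 with LA present, and that of Tlr4 by 0.23. Myd88 was the highest of the list with LA present, at -0.04 with LPS and LA and -0.71 with LA, a difference of 0.67. Map3k8, the kinase that links NF-kB1 to ERK, differed equally by 0.67 with an error of 0.31, and Ly86, a relative of the co-receptor MD-2, was lowest at -0.61.

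Among the transcription factors, 0 of 22 members of the NF-kB list were at least 2-fold apart with LA present (median 0.04), against 18 of 22 higher without LA (median 1.67). Nfkbia, the inhibitor that NF-kB itself induces, had levels of 2.58 with LPS and LA and 2.28 with LA, against 5.51 with LPS and 2.92 in medium. Tnfaip3, the deubiquitinating brake A20, had levels of -0.55 with LPS and LA and -1.07 with LA, against 5.26 with LPS and 1.61 in medium, a difference of 0.53 with LA present. Bcl3 (0.56) was highest and Nfkb2 (-0.44) lowest, so members lay on both sides of 0. In the list of immediate early factors 0 of 25 members were apart (median -0.04), with Klf4 highest at 0.64 and Csrnp1 lowest at -0.48. The interferon, IRF, STAT and JAK list had 0 of 23 members apart (median 0.01), against 9 of 24 higher without LA. Its widest member on the high side, Irf1, differed by 0.22 with LA present and by 3.06 without.

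Feedback genes gave 1 member apart. Dusp10, a phosphatase of the p38 and JNK kinases, had levels of -2.77 with LPS and LA and -1.11 with LA, against 1.29 with LPS and -0.63 in medium. It was the sole gene at least 2-fold apart of the 17 counted in the list of MAP kinase phosphatases and mRNA decay factors (median 0.09). Dusp2, another of these phosphatases, was 0.62 higher with LPS and LA and 5.50 higher with LPS alone. In the list of SOCS, IL-10 and TGF-beta genes 0 of 19 were apart (median 0.00). Socs3, which blocks signalling of the IL-6 receptor, had levels of 0.50 with LPS and LA and 0.18 with LA, against 3.85 with LPS and -1.19 in medium, so that both LA arrays lay above medium.

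Of the cytokine list, 18 of 25 members were counted with LA present, with 1 higher (Il12a), 2 lower and a median of 0.02, while without LA 17 of 22 were higher and the median was 3.52. The lower members were Il11, a cytokine of the IL-6 family, at -1.27, and Il33, an alarmin, which was dim on the LPS with LA array and at least 4.28-fold lower. Both were dim on the LPS and medium arrays as well. Of the chemokine list 21 members were counted, with 2 higher, 0 lower and a median of 0.08, against 16 of 25 higher without LA (median 1.61). Beside Cxcl10 the other was Cxcl12, at least 2.26-fold higher, whose level was -2.98 with LPS and LA and not well above background with LA. Ccl4, an inflammatory chemokine, had levels of 2.18 with LPS and LA and 1.91 with LA, against 8.11 with LPS and 1.82 in medium. Ccl2, which attracts monocytes, had levels of 2.25 with LPS and LA and 2.48 with LA, against 3.63 with LPS and -0.40 in medium. The Ccl2 level was thus well above that of medium on both arrays with LA, and nearly equal between them.

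Interferon-stimulated genes showed 2 of 44 counted members at least 2-fold higher with LA present, Rsad2 and Isg20, with 0 lower and a median of 0.02. Without LA 45 of 46 were higher and the median was 2.77. With LA present 23 measured members lay above 0 and 20 below. Ifit1, an antiviral protein that binds RNA caps, had levels of -1.58 with LPS and LA and -1.998 with LA, against 4.67 with LPS and -0.66 in medium. Isg15, a ubiquitin-like modifier, had levels of 0.49 with LPS and LA and 0.33 with LA, against 6.18 with LPS and 1.98 in medium. Irgm1, a GTPase of the interferon-gamma response, was the lowest measured member at -0.68, and its other probes reached 0.00. Ifi44, dim on the LPS with LA array, was at least 1.66-fold lower.

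Effector enzymes were alike on the LPS with LA and LA arrays. Nos2, the inducible nitric oxide synthase, had levels of 1.01 with LPS and LA and 0.98 with LA, against 4.57 with LPS and 1.61 in medium. Ptgs2, which makes prostaglandin precursors, had -0.80 with LPS and LA and -0.996 with LA, against 5.15 with LPS and -0.93 in medium. Their list had 0 of 24 members apart (median -0.08), and the inflammasome list 0 of 18 (median 0.04).

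Among pattern recognition receptors Tlr3 stood out. This endosomal sensor of double-stranded RNA had levels of -1.37 with LPS and LA and -3.74 with LA, against -0.39 with LPS and -3.19 in medium. Its difference was 2.37 (error 0.32) with LA present and 2.81 without. It has 1 measured probe, its level with LA lay near the lowest signal well above background, and after normexp correction the difference was 0.66. It was the sole member of 27 at least 2-fold apart, and the list's median was -0.12.

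Tlr3 led the genes at least 2-fold higher in both comparisons, ranked by the smaller of the 2 differences. After it came Cxcl10, Nfxl1, Il12a, Ovol1, Fzd5, Lrrc4, Gbp4, Rsad2 and Riok1. With normexp correction Rsad2 alone of these genes, Tlr3 included, stayed at least 2-fold higher with LA present. The others stood between 0.39 (Gbp4) and 0.95 (Fzd5). Gbp4, an interferon-induced GTPase, had levels of -2.36 with LPS and LA and -3.66 with LA, against 0.43 with LPS and -3.02 in medium. Fzd5, a Wnt receptor, had levels of -0.52 with LPS and LA and -2.43 with LA, against -0.09 with LPS and -1.56 in medium, and both its probes were higher with LPS and LA (0.84 and 1.91). Of the others with several measured probes, the second probe of Nfxl1 differed by -0.30 and that of Riok1 by 0.15. At least 2-fold lower in both were Prmt7, Slc30a5, Trub1, Mllt11, Clnk, Polk, Zbtb40, Strada, Klc3 and Uck1 by the same ranking. Where several probes of these were measured, another probe with LA present stood at 0.24 for Strada and 0.06 for Polk. It stood at -0.18 for Klc3, -0.19 for Slc30a5 and -0.88 for Prmt7. With normexp correction Slc30a5, Polk, Zbtb40 and Strada stayed at least 2-fold lower with LA present. The other genes named as lower in both stood between -0.38 (Clnk) and -0.70 (Uck1). Trub1, a pseudouridine synthase, had levels of -1.84 with LPS and LA and -0.60 with LA, against -2.83 with LPS and -0.22 in medium.

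The genes whose LPS difference was most above its value without LA were far lower with LPS than in medium. Rab7b, a small GTPase of late endosomes known to promote TLR4 degradation, had levels of 0.95 with LPS and LA and 1.12 with LA, against -3.15 with LPS and 1.47 in medium. Il6ra, the receptor subunit for interleukin-6, had levels of 3.21 with LPS and LA and 3.07 with LA, against -0.97 with LPS and 2.497 in medium. The LPS array was the low one in both genes. This did not hold for all: Epm2a, a glycogen phosphatase, had levels of -2.57 with LPS and LA and -3.47 with LA, against -3.03 with LPS and -0.43 in medium, so the LA array was lowest. Fbxl4, an F-box protein of mitochondria, had levels of -2.41 with LPS and LA and -2.75 with LA, against -2.89 with LPS and 0.17 in medium, so that medium alone was high. Daglb, a diacylglycerol lipase, differed by 0.63 with LA present and by -2.78 without, and H6pd, an enzyme of the pentose phosphate route in the endoplasmic reticulum, by 0.51 and -2.78.

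The MHC class I list lay slightly lower with LPS and LA: 16 of 19 measured members were below 0, the median was -0.16 and 0 were 2-fold apart. H2-K1, a heavy chain, had levels of 5.97 with LPS and LA and 6.25 with LA, against 7.63 with LPS and 6.93 in medium. The MHC class II list had 13 of 18 below 0 with a median of -0.12. Under the alternative settings the median of the class I list ran between -0.20 and -0.12, and that of the class II list between -0.12 and -0.08. Of all 14905 measured genes 52.9% were below 0, and of the 2699 with a mean level of 2 or more, 59.1% were below 0, with a median of -0.03. The cytosolic ribosomal proteins, among the brightest genes, had 23 of 28 below 0 and a median of -0.08.

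Lactate and proton handling genes were counted because both groups held LA. Of 22 counted members, 0 were 2-fold higher and 2 were 2-fold lower, and the median was -0.10. Atp1b1, the beta subunit of the sodium pump, had levels of -2.62 with LPS and LA and -0.51 with LA, against -2.61 with LPS and -3.65 in medium. Hcar2, a receptor for beta-hydroxybutyrate, had levels of -2.28 with LPS and LA and -1.25 with LA, against -0.17 with LPS and -1.46 in medium. Each of these genes had 1 measured probe. With normexp correction both were under 2-fold apart, Atp1b1 at -0.78 and Hcar2 at -0.30. Gpr65, the proton sensor, differed by -0.27 with an error of 0.23, and Slc16a3, the lactate exporter MCT4, by -0.14. Car13, a cytosolic carbonic anhydrase, was highest at 0.92 with LA present and 3.16 without. The hypoxia and HIF-1 list (median 0.01), the glycolysis list (-0.03), the cAMP list (-0.01), the integrated stress response list (-0.05) and the NRF2 list (-0.02) each had 0 members 2-fold apart.

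Of the heat shock and unfolded protein genes, 2 of 22 counted members were at least 2-fold lower and 0 were higher. Hspa1a, the inducible HSP70, had levels of 0.18 with LPS and LA and 2.33 with LA, against 5.52 with LPS and 4.50 in medium. Hspa1b, its near-identical neighbour, had levels of -1.96 with LPS and LA and -0.41 with LA, against 3.80 with LPS and 2.98 in medium. Both were lower on the arrays with LA and lowest with LPS and LA, with differences of -2.15 and -1.55. With normexp correction Hspa1a stood at -1.835 and Hspa1b at -0.77, under 2-fold. Probes of these 2 genes may share transcripts, so they are not independent. The other 20 counted members were under 2-fold apart, with a list median of -0.12 and Hsp90aa1 at -0.29.

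Over all genes, list members included, those furthest apart that stayed 2-fold apart under normexp, quantile and median scaling and whose probes all went the same way numbered 4 higher and 14 lower. The higher were Tnpo2, a nuclear import receptor (2.64), Ercc8, a factor of transcription-coupled DNA repair (2.08), Ints5, a subunit of the Integrator complex (1.40), and Rsad2. Tnpo2 had levels of 0.20 with LPS and LA and -2.43 with LA, against -2.58 with LPS and -2.28 in medium, so that the LPS with LA array alone was high, while its other probe differed by 0.06. Ercc8 was also high on the LPS with LA array alone, and its other probe too differed by 0.06. The lower were led by Tmod1, which caps the slow-growing end of actin filaments. Tmod1 had levels of -3.89 with LPS and LA and 0.67 with LA, against -4.53 with LPS, where it was dim, and -3.72 in medium, so the LA array alone was high. Zfp715, a zinc finger gene, had levels of -2.81 with LPS and LA and 0.71 with LA, against -4.28 with LPS and -2.27 in medium. Fstl1, a secreted glycoprotein, had levels of -1.91 with LPS and LA and 0.44 with LA, against -0.48 with LPS and -0.39 in medium. The others were Endod1 (-2.81), Rcc1l (-2.49), Tifab (-2.33), Dpp4 (-2.16), Hspa1a, Zbtb40 (-1.78), Ccdc107 (-1.53), Slc30a5 (-1.31), Wdr61 (-1.29), Saraf (-1.25) and Nuf2 (-1.18). The other measured probe differed by -0.33 for Endod1, -0.36 for Rcc1l, -0.19 for Slc30a5, -0.16 for Wdr61 and -0.78 for Saraf. The rest of the lower genes had 1 measured probe each.

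Genes dim on 1 of the 2 arrays made up 164 of the genes counted as higher and 234 of those counted as lower. The largest bounds on the high side were those of Kank4 (at least 29.3-fold), Tfap2b (17.1), Fbxl13 (15.2), Vtcn1 (15.01), Vstm2l (13.3), Gimap5 (6.49), Iltifb (6.35) and Ctsj (6.26). On the low side they were those of Ccdc150 (at least 17.2-fold), P2ry12 (13.2), Pigw (9.51), Gcnt4 (9.14), Bend5 (8.23), Zfp42 (8.12), Zfp81 (7.86) and Ccdc172 (7.85). Of the 164 genes, 105 were well above background on the LPS with LA array and on none of the other 3, and of the 234, 148 on the LA array alone.

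Brightness and the other probes of a gene bear on these counts. Called genes measured on both arrays had a median mean level of -2.30, where all measured genes had -0.29, while in LPS against medium called genes had -0.21. Of 6740 genes with a mean level above 0, 30 were at least 2-fold apart (0.445%), against 968 of 6593 (14.7%) in LPS against medium. Of the 2699 with a mean level of 2 or more, 2 were apart. Of 31 genes counted as higher that had several measured probes, 4 had every probe at least 1.5-fold higher, and of 43 lower genes 7 had every probe at least 1.5-fold lower. In LPS against medium those shares were 309 of 366 and 203 of 320. Of the 87 genes higher with LPS and LA that were measured on all 4 arrays, the LPS with LA array held the highest level of the 4 for 59, and of the 133 lower genes the LA array held the highest for 100. The part of brightness and of single spots in these counts was not tested beyond these values.

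**Figure D5:**
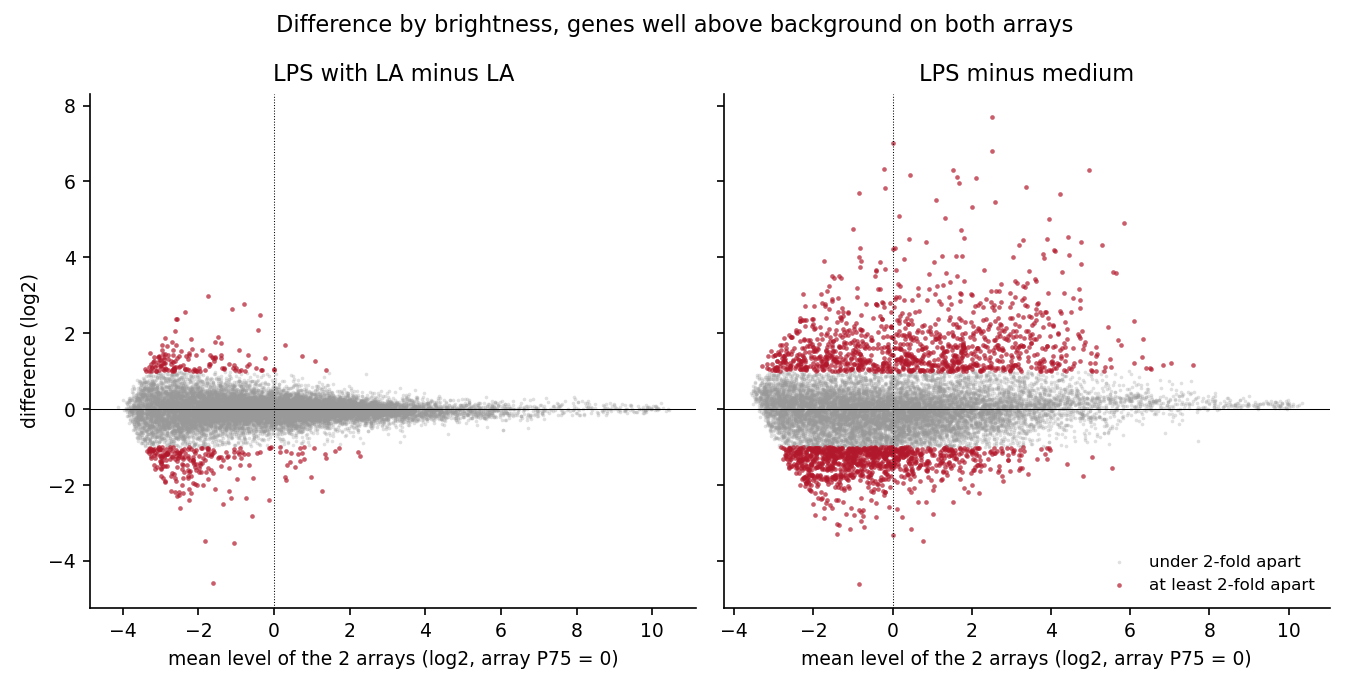
Difference (vertical axis, log2) against mean level of the 2 arrays compared (horizontal axis, log2, 0 is the 75th percentile of the array) for genes well above background on both; left LPS with LA minus LA, right LPS minus medium, red points at least 2-fold apart. In the left panel red points lie mostly below a mean level of 0 (30 lie above it), and in the right panel 968 lie above it.

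Cell type markers were compared because GM-CSF cultures can hold other myeloid cells, and in bulk RNA fewer cells of a type and less RNA per cell cannot be told apart. Of 23 dendritic cell markers, 21 were well above background on both the LPS with LA and the LA array, with a median difference of 0.01. Itgax (CD11c) had levels of 0.32 with LPS and LA and 0.54 with LA, and Cd74, the invariant chain of MHC class II, had 6.96 with LPS and LA and 7.01 with LA. At least 2-fold apart were Flt3 (1.05) and Dpp4 (-2.16). With normexp correction Flt3 stood at 0.31 and Dpp4 at -1.22. Of 25 macrophage and monocyte markers 24 were well above background on both, with a median of -0.06. All 24 neutrophil and granulocyte precursor markers were well above background on all 4 arrays, and their summed signal, in multiples of each array's 75th percentile, was 1297 with LPS and LA and 1241 with LA, against 1142 with LPS and 968 in medium. Their median difference was 0.14 with 19 of 24 above 0, where 47.1% of all measured genes were above 0, and 0 were 2-fold apart. S100a8, an abundant neutrophil protein, had levels of 6.89 with LPS and LA and 6.65 with LA. Mast cell, basophil and eosinophil markers summed to 154 with LPS and LA and 145 with LA, with 0 of 20 apart. Lymphocyte and NK markers summed to 15.9 with LPS and LA and 16.7 with LA, with a median difference of 0.07. Of 17 counted, 0 were higher and 3 lower, namely Cd79b (-1.94), Cd3g (-1.30) and Klrb1c (at least 6.26-fold lower). With normexp correction these stood at -0.64 (Cd79b), -0.38 (Cd3g) and -0.83 (Klrb1c). On the other side of 0, under 2-fold, lay Cd3d (0.998) and Cd8b1 (0.77). Erythroid and megakaryocyte markers summed to 14.3 with LPS and LA and 14.7 with LA, with a median difference of 0.06 and Alas2 lower by 1.22 log2 units. The brightest of them with LPS and LA were Vwf (level 2.02), Gp1bb (1.83) and Pf4 (1.61). Alas2 differed by -0.37 with normexp correction. Fibroblast and endothelial markers summed to 127 with LPS and LA and 132 with LA. Of 15 counted, 2 were higher (Col1a1 at 1.08 and Cxcl12) and 1 lower (Kdr at -1.08). With normexp correction these stood at 0.20 (Col1a1), 0.30 (Cxcl12) and -0.22 (Kdr). The part of cell composition in the differences was not tested.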

How the data were processed

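The deposited intensity of each spot is a linear processed signal from which background was subtracted. It came from Feature Extraction 12.0.3.1 per the file headers, and from 11.5.1.1 per the submitters' processing notes. Its flags for outliers, controls and signal well above background are other per-spot values the authors deposited with it. The authors' deposited table of 31529 spots equals this intensity times 1 factor per array. Feature Extraction's normalization and its error model beyond the headers are not given in the sources used here.

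Outlier spots (146 on the LPS with LA array, 134 on the LA array, 129 with LPS, 154 in medium) and control spots were left out, 0 spots were saturated, and spots of a probe were averaged. Of 56605 probes 33767 matched 1 symbol of a RefSeq table (GRCm38.p6) by transcript identifier and 22838 none. Each gene took its brightest probe by mean level over 4 arrays. The array headers name mm9, and coordinates come from RefSeq alone. Of 885 list genes 10 had no value. List members dim on 1 array entered counts at their bound, and medians use members measured on both arrays. Other columns of per-sample values not used numbered 0.

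The genes, lists and comparisons were chosen with earlier results of these data known. Named genes followed a rule: the fixed set of 47; up to 15 largest differences each way of genes with an ordinary symbol that kept 2-fold under normexp, quantile and median scaling with every probe going the same way; up to 8 largest bounds each way; up to 4 highest and 4 lowest members of a list and those 2-fold apart; and up to 10 genes apart in both LPS comparisons in the same or in opposite directions, and the 8 largest differences each way between the 2 comparisons. Ptx3, Cd74, S100a8 and H2-K1 were named after their values were seen, as were the genes whose promoters are printed.

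Alternatives were normexp correction (offset 50, on the median spot signal, since the mean signal is not in the files used), quantile and median scaling, a 75th percentile taken over the probes that every array detected, no filter, genes above background on both arrays, the mean of all probes, the authors' table, outlier spots kept and thresholds of 1.5-fold and 3-fold. The functions were tested on simulated data with known differences. Python 3.11.15 with numpy 2.4.6, pandas 2.3.3, scipy 1.17.1 and matplotlib 3.10.9 and R 4.3.3 with limma 3.58.1 were used.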

Additional observations from a re-analysis of the deposited data

Results flagged for a closer look

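Named genes measured on all 4 arrays that were at least 2-fold apart in one direction with LA present and in the other direction without LA were singled out. The difference between the comparisons was not tested, since each rests on 1 array a side. Lower with LPS and LA than with LA, but higher with LPS than in medium, were Plekhn1 (-1.85 with LA present, 1.72 without), Dusp10 (-1.66 and 1.92), Prrg4 (-1.36 and 1.21), Rab3ip (-1.12 and 2.35), Cttn (-1.09 and 1.09) and Kdr (-1.08 and 2.39). Higher with LPS and LA than with LA, but lower with LPS than in medium, were Slc39a10, a zinc importer (1.43 and -1.57), Rint1 (1.34 and -1.52), Radx (1.34 and -1.76) and Polr3g (1.07 and -1.28). Other measured probes of the gene, in LPS with LA against LA, differed by 0.02 for Cttn, 0.01 for Rint1, 0.32 for Radx and -0.24 for Polr3g. After normexp correction each of these genes was under 2-fold apart with LA present, with Plekhn1 (-0.996) and Rint1 (0.91) the furthest. Over all genes measured on 4 arrays, 13 of the 133 lower with LA present (9.77%) were higher without, where 1045 of all 13368 were. The reverse held for 7 of the 87 higher with LA present (8.05%), where 1010 of all 13368 were lower without.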

How the results depend on the processing

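No paired analysis was possible because each group is 1 array. The counts of genes at least 2-fold higher and lower in LPS with LA against LA (299 and 457) stayed within 1.5 times under quantile, median and other percentile scaling, the mean of all probes and kept outlier spots. They came to 17 and 34 after normexp, 135 and 223 without bounds, 985 and 1369 with no filter, 97 and 120 in the authors' table, 972 and 1253 at 1.5-fold and 78 and 157 at 3-fold. Among genes of mean level above 0, a choice made after seeing the data, they came to 6 and 24. In LPS against medium, 1437 higher and 1339 lower became 739 and 346 after normexp, 2624 and 3012 at 1.5-fold, 728 and 381 at 3-fold and 662 and 306 above a mean level of 0. In that comparison the higher count was 740 in the authors' table, and the lower count 2295 with no filter. The share of called genes that were higher stayed between 33.2% and 44.7% in LPS with LA against LA outside the bright genes (20.0%). In LPS against medium it was 51.8%, and 68.1% after normexp, 36.7% with the percentile taken over probes that every array detected, and 30.1% in the authors' table. Those last 2 scalings moved the median of all genes there by -0.19 and -0.24 log2 units, against 0.02 and 0.03 with LA present. The 333 recomputed list medians with LA present lay between -0.20 and 0.23 and moved by at most 0.14, and 35 of them, in 16 lists, changed sign. Of 806 recomputed differences of named genes, 78 moved by more than their software error and 1 reversed: Slc39a10, to -0.49 as the mean of all its probes. The cause of these changes was not tested. Signal over background limits the dim genes, and no count is backed by a second culture.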
